A study of Rattus norvegicus with 8 samples.

Results

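The genes described here are 9 that set the threshold for receptor-driven cell death in rat ovarian granulosa cells: the death receptors Fas and Tnfrsf1a, the caspase-8 inhibitor Cflar, the inhibitor of apoptosis genes Xiap, Birc2 and Birc3, the co-chaperone Bag1, and the NF-kappaB subunits Nfkb1 and Rela. Their members are the 13 probe sets that the array's annotation names with exactly 1 of these genes, of 20826 probe sets with a single gene symbol on the array (9 of 14217 genes). Of the 13, 9 were bright enough to count as measured, 1 for each gene.

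Granulosa cells surround the oocyte and die by apoptosis when a follicle degenerates, a process called atresia. RNA of such cells was hybridised to 8 one-colour Affymetrix arrays of the rat genome, 1 array for each sample. In the study immature rats were given eCG, a gonadotropin that drives follicle growth, then, after 24 h, an antibody against eCG, which sends follicles into atresia, or pre-immune serum. Of the oocytes, 0% developed to term after the antibody and 30 to 50% after the serum. Both treatments therefore followed eCG. The labels of the arrays differ only in a number and name no treatment, so all 8 arrays stayed without a group, no treated and control samples could be set against each other, and no test between treatments was made. Age, strain and whether follicles of several animals were pooled are not given in the sources used here.

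Death receptors are cell surface proteins that, once bound by ligands such as Fas ligand or TNF, assemble caspase-8 into an active form. The protein made from Cflar, called FLIP, takes the place of caspase-8 in that complex, and the inhibitor of apoptosis proteins act further on: the Xiap protein binds active caspases, and the Birc2 and Birc3 proteins are ubiquitin ligases at the TNF receptor that steer its signal to NF-kappaB. NF-kappaB, most often a pair of the proteins from Rela and Nfkb1, switches on survival genes, Birc3 and Cflar among them. In the rat ovary the Fas pathway has been tied to granulosa cell death in atresia, and Xiap to the survival of granulosa cells under gonadotropin.

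Promoter sequences of 7 of the 9 genes were matched in a RefSeq table of the GRCr8 assembly, all but Xiap and Birc3. Each covers 250 bases before to 50 bases after the gene's start. Of the 7 promoters, 3 held a match to the kappaB consensus, the sequence that NF-kappaB binds, searched on both strands, against 7.51% of all 33469 promoters in the table. Those 3 and the promoter of Rela, which encodes the usual partner of the Nfkb1 product, are printed 5′ to 3′ on the gene's strand, with the kappaB match in capitals.
Fas promoter, chr1:241211905-241212204, plus strand: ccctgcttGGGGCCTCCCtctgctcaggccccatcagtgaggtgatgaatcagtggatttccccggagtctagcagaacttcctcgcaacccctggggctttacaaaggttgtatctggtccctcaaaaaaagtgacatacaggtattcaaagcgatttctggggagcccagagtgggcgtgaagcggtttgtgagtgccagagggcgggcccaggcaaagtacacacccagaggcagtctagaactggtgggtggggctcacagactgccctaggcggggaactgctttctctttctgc
Bag1 promoter, chr5:60877010-60877309, minus strand: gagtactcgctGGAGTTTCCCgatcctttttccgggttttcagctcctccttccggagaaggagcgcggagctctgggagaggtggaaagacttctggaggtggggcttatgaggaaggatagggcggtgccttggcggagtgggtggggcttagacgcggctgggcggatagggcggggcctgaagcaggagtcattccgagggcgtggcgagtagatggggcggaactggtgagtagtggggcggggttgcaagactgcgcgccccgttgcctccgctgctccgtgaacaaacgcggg
Nfkb1 promoter, chr2:226805413-226805712, minus strand: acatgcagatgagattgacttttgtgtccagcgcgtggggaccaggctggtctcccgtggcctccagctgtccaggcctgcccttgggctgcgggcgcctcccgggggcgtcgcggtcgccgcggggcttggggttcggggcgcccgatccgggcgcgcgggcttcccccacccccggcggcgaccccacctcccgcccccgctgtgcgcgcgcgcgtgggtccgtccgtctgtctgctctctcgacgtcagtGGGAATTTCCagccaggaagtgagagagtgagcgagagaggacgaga
Rela promoter, chr1:212354086-212354385, plus strand: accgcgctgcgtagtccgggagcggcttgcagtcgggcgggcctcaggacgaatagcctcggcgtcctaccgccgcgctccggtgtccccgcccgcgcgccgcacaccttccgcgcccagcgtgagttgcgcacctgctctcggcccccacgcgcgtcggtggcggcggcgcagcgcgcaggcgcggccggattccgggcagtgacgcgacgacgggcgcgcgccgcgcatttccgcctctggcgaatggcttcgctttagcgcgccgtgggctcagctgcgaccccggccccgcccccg
The match in Nfkb1 lay 4 to 13 bases after the start, that in Bag1 at -239 to -230 on the opposite strand, and that in Fas at -242 to -233, where the same 10 bases match on both strands. A GC box, GGGCGG on either strand, was found in 4 of the 7 promoters, against 33.1% of all. Bag1 held 5 of them, Rela 3, and Fas and Nfkb1 1 each, with no overlap with a kappaB match. A TATA box, TATAAA on either strand, was found only in Birc2 among the 7, against 14.2% of all, at 3 places of which a pair overlap. G and C made up 56.7% of the promoter of Fas, 63.7% of Bag1, 71.3% of Nfkb1 and 76.7% of Rela. They made up 55.7% of Tnfrsf1a, 39.7% of Cflar and 33.3% of Birc2, against a median of 51.7% in all promoters. The part of base composition in the shares of matches was not tested. Letters in a window are a description and show no binding.

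Signals are MAS5 values brought to a common scale, and they are given in ascending order of array number, the arrays 2074 and 2076 first and then 2194 to 2199. A signal under the 40th percentile of its array, 273 to 471 depending on the array and highest on array 2195, was treated as near background and raised to that floor when spreads were taken. The spread of a gene is its inner range, the second highest array over the second lowest. It leaves out the highest and the lowest array, but where 2 arrays lie apart from the rest, leaving out 1 of them can still change it. Arrays 2074 and 2076 stood apart from the other 6. The median absolute log2 difference over all measured probe sets was 0.29 between these 2, 0.32 to 0.51 between pairs of the other 6, and 0.45 to 0.62 between the 2 and the 6. Among the 6, array 2195 differed from each of the others by 0.45 to 0.51, against 0.32 to 0.46 between pairs of the rest, and its median signal was the highest of the 8 arrays. The 3' to 5' signal ratio of the beta-actin control, a sign of RNA quality, was 11.0 on array 2074, 12.1 on array 2076 and 4.67 to 8.08 elsewhere. That of the GAPDH control was 6.66, 6.07 and 5.27 to 8.81 in the same order. No pair of arrays held the same values. Granulosa identity could be checked: all 7 markers with a probe set were measured, while no single-gene probe set was listed for Fshr. In 2 of the 7 markers, arrays 2074 and 2076 both lay above the other 6, as in the 4 members described next: the transcription factor Foxl2 gave 10432 and 8098 there, against 3572 to 6927 elsewhere, and Inha, the inhibin alpha subunit, gave 90530 and 69907, against 26724 to 54083. The aromatase Cyp19a1 gave 6422 on array 2074, 987 on array 2076 and 3582 to 20564 elsewhere. Several markers of other cell types that counted as measured lay near background. Pecam1 and Cd163 were each under the floor on 4 of the 8 arrays, and Tek and Zp2 each on 3. The sums given next include such signals and do not by themselves show that those cells were present. Of macrophage markers 6 of 8 were measured, with a summed signal of 7980.5 on array 2074, 5359.9 on array 2076 and 5114 to 9068 elsewhere. Among them Csf1r, the receptor of a macrophage growth factor, lay below the other 6 arrays on both, at 179 and 526 against 871 to 1891, while Lyz2, a lysozyme, gave 5460 on array 2074, 2532 on array 2076 and 1498 to 4595 elsewhere. Aif1 gave 120.0 on array 2074, 420.1 on array 2076 and 301 to 813 elsewhere. Of lymphocyte markers 3 of 7 were measured, with sums of 1209 to 3992. Endothelial markers gave 2 of 6 measured (273 to 1964), oocyte markers 2 of 7 (259 to 1878) and surface epithelium markers 2 of 6 (420.2 to 1743). Stromal markers gave 5 of 7, with sums of 6354 on array 2074, 4752 on array 2076 and 2785 to 5909.7 elsewhere. Theca markers gave 3 of 5, with sums of 186634 to 402272. Nearly all of this was Hsd3b1, which granulosa cells express too, at 185596 to 400944. The theca markers Cyp17a1 and Insl3 were under the floor on 5 and 3 of the 8 arrays, at 43.5 to 1159 and 42.8 to 1010. Erythroid markers gave 3 of 5, with sums of 48924 on array 2074, 13542 on array 2076 and 4280.4 to 10816 elsewhere. Their part in the values of the 9 genes was not tested.

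Among the 9 measured members, 4 spread by 2-fold or more: Rela, Birc2, Bag1 and Tnfrsf1a. The other 5, Fas, Cflar, Xiap, Birc3 and Nfkb1, stayed below it. For comparison, 31.7% of the 14058 measured probe sets of the array reached 2-fold, and the median log2 inner range was 0.89 in the members and 0.80 in all. The 4 wide members were those in which arrays 2074 and 2076 both lay above the other 6 arrays, which held for 13.1% of all measured probe sets. In 1 member, Xiap, both lay below the other 6, as in 13.6% of all. Leaving out array 2074 or array 2076 brought the count of members at 2-fold or more to 0 of the 9 and 0 of the 8 that were then measured. The share of all measured probe sets at 2-fold or more was then 20.6% and 20.5%. In the 4 wide members the other array of the pair is then the highest, which the inner range leaves out. Their spread is then set by the other 6 arrays alone, so leaving out 1 of the pair acts like leaving out both. In bulk RNA such as this, fewer cells of a type and less RNA per cell cannot be told apart.

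**Figure D1:**
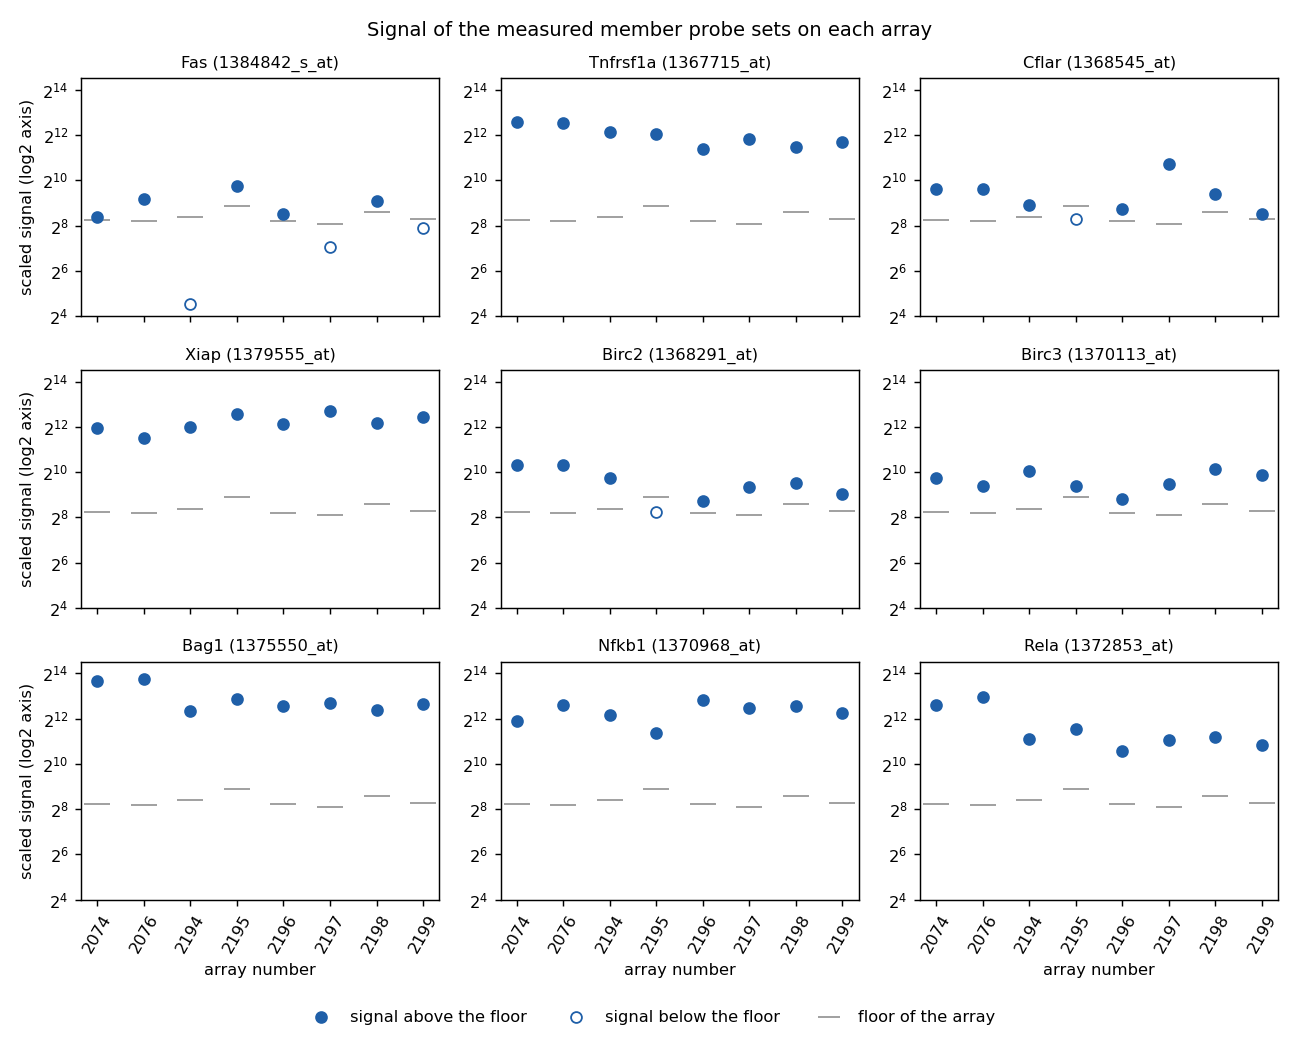
Scaled signal (log2 axis) of the measured probe set of each of the 9 genes on the 8 arrays; filled points lie above the floor of their array, open points below it, and grey dashes mark the floor. Rela, Bag1, Birc2 and Tnfrsf1a have their 2 highest points on arrays 2074 and 2076, Xiap its 2 lowest, and Fas has 3 open points.

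Fas, the receptor for Fas ligand, was near background. Its brightest probe set, 1384842_s_at, gave signals of 328, 582, 22.9, 865, 366, 134, 542 and 239, with the highest on array 2195 and the lowest on array 2194. It lay under the floor on 3 arrays, 2194, 2197 and 2199, so its inner range of 1.86-fold is a lower bound. Without the floor it was 4.34-fold, and the order of its arrays could not be read at this signal. The other probe sets of Fas, 1369900_at and 1397221_s_at, were under the floor on all 8 arrays, at 12.8 to 129.6 and 30.6 to 447. A suffix of s marks a probe set that can match more than 1 transcript.

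Tnfrsf1a, the main TNF receptor, was well above background on all 8 arrays. Its probe set 1367715_at gave 6185, 5843, 4549, 4269, 2646, 3649, 2827 and 3283. The inner range was 2.07-fold and the full range 2.34-fold, from array 2196 to array 2074. The pair 2074 and 2076 lay above the other 6 arrays, but array 2194 followed at 4549, so the values formed a graded series. The inner range was 1.61-fold without array 2074 or array 2076, 1.78-fold without array 2196 or 2198, and 1.51-fold over arrays 2194 to 2199.

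Cflar was low, and a single array carried its peak. Its probe set 1368545_at gave 777, 773, 484, 315, 424, 1704, 674 and 363. The signal on array 2197 was the highest and that on array 2195 the lowest and under that array's floor. The inner range was at least 1.83-fold and the full range at least 4.69-fold, the latter set by arrays 2197 and 2199. Without the floor, or with it at the 25th percentile, the inner range was 2.14-fold. The other probe set of Cflar, 1379919_at, was under the floor on 4 arrays, and its highest signal was 561 on array 2195 and its signal on array 2197 was 209. The peak of the first probe set on array 2197 was therefore not seen in the other one, which was too weak there to be read.

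Xiap had the narrowest inner range of the members over the 8 arrays, though not over arrays 2194 to 2199, where Rela, Bag1 and Nfkb1 were narrower. Its probe set 1379555_at gave 3927, 2895, 4035, 6005, 4528, 6704, 4593 and 5598. Arrays 2076 and 2074 were the lowest and 2197 and 2195 the highest. The inner range was 1.53-fold, the full range 2.32-fold, and the inner range over arrays 2194 to 2199 was 1.33-fold. The other probe set of Xiap, 1369248_a_at, was under the floor on 7 arrays, at 17.0 to 564, and gives no second reading.

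Birc2 and Birc3 encode the cellular inhibitor of apoptosis proteins and are neighbours on the same chromosome in the gene table, with 0 protein-coding genes between them. The probe set of Birc2, 1368291_at, gave 1258, 1280.5, 851, 299, 425, 654, 733 and 520.5. It was highest on arrays 2076 and 2074, lowest on 2195, where it fell under the floor, and second lowest on 2196. Its inner range was at least 2.67-fold, 2.96-fold without the floor, at least 1.81-fold without array 2074 or 2076, and at least 1.56-fold over arrays 2194 to 2199. The probe set of Birc3, 1370113_at, gave 844, 678, 1065, 663, 445, 706, 1134 and 939. It was highest on arrays 2198 and 2194 and lowest on 2196, and arrays 2074 and 2076 fell among the others. Its inner range was 1.61-fold, also over arrays 2194 to 2199, and 2.17-fold after quantile normalization. Both genes were low on array 2196, but arrays 2074 and 2076 were the highest in Birc2 and in the middle of the range in Birc3.

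Bag1, whose protein binds both the survival protein BCL2 and Hsp70 chaperones, separated 2 arrays from 6. Its probe set 1375550_at gave 12823, 13707, 5162, 7534, 5933, 6615, 5327 and 6346. The pair 2074 and 2076 lay above the rest with a gap, and the other 6 arrays stayed within 1.46-fold of each other. The inner range was 2.41-fold over 8 arrays, 1.41-fold without array 2074 or 2076, and 1.24-fold over arrays 2194 to 2199.

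Rela, which encodes the transactivating subunit p65 of NF-kappaB, had an inner range of 3.46-fold over the 8 arrays. Its probe set 1372853_at gave 6226, 7835, 2219, 2981, 1521, 2103, 2309.6 and 1801. Arrays 2074 and 2076 again lay above the other 6, with no overlap. The inner range was 1.66-fold without array 2074 or 2076 and 1.28-fold over arrays 2194 to 2199. It was the widest of the members with the floor at the 40th percentile, but Fas, itself a lower bound there, was wider with the floor at the 25th percentile (3.65-fold) and with none (4.34-fold). Without array 2074, Fas at 1.86-fold, Cflar at 1.83-fold and Birc2 at 1.81-fold were wider than Rela. Nfkb1, which encodes p105 and its product p50, did not share this pattern. Its probe set 1370968_at gave 3843, 6257, 4608, 2653.5, 7137, 5651, 6044 and 4902. It was lowest on arrays 2195 and 2074 and highest on 2196 and 2076, with an inner range of 1.63-fold over 8 arrays and 1.31-fold over arrays 2194 to 2199.

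**Figure D2:**
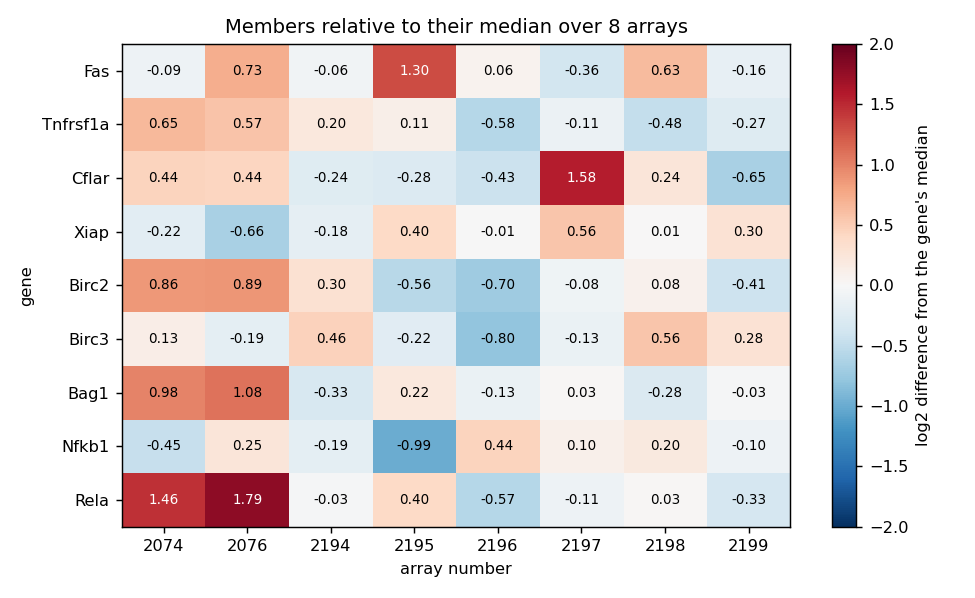
Log2 difference of each gene (rows) from its own median over the 8 arrays (columns), after the floor; red is above and blue below the median. Rela reads 1.46 and 1.79 and Bag1 0.98 and 1.08 on arrays 2074 and 2076, whereas Xiap reads -0.22 and -0.66 there and Nfkb1 -0.45 and 0.25.

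The balance of the NF-kappaB subunits was read as the log2 difference of Rela minus Nfkb1 within each array, relative to its median over arrays. It was 1.92 on array 2074, 1.55 on 2076 and 1.39 on 2195, and 0.17, -1.01, -0.21, -0.17 and -0.22 on arrays 2194, 2196, 2197, 2198 and 2199. The 3 highest arrays lay well above the rest. On array 2195 Nfkb1 had its lowest signal, 2653.5, whereas on 2074 and 2076 Rela had its highest ones. The inner range of the difference was 1.77 on the log2 scale, and 1.61 to 1.77 when any 1 array was left out. Over arrays 2194 to 2199 it was 0.39. That figure leaves out array 2195 at 1.39 and array 2196 at -1.01, so the difference was not flat over these arrays.

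Across the members, no array was uniformly high or low. Array 2076 was the highest in 3 of the 9 genes and the lowest in 1, and 7 of the 9 lay above their median there. Array 2198 also had 7 above. Array 2196 was the lowest, after the floor, in 4 of the 9 and the highest in 1, and 7 lay below their median, as on array 2199. Likeness between genes was measured as the root mean square difference of median-centred log2 signals over the 8 arrays, in which a smaller value means more alike. The closest pairs among members were Tnfrsf1a and Birc2 at 0.35, Tnfrsf1a and Bag1 at 0.35, and Bag1 and Rela at 0.40. The least alike were Xiap and Rela at 1.12 and Nfkb1 and Rela at 1.07.

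**Figure D3:**
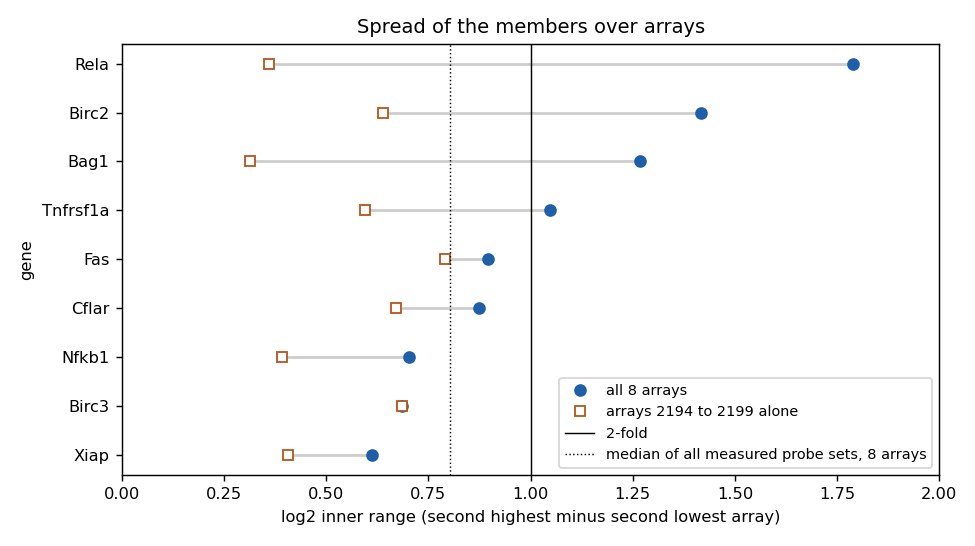
Log2 inner range of each gene (rows) over all 8 arrays (filled circles) and over arrays 2194 to 2199 alone (open squares), with 2-fold as a solid line and the median of all measured probe sets over 8 arrays, 0.80, as a dotted line. Over 8 arrays 4 genes pass 2-fold, over the 6 arrays 0 do, and Fas is drawn but did not count as measured over the 6.

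For the wide members above the floor on all 8 arrays, the 3 genes with the most similar profile were taken from 7386 other genes above the floor. Those of Rela were Lsr at 0.14, Grina at 0.15 and Sec14l1 at 0.25, against a median of 0.94 for all genes compared. Lsr, a lipoprotein receptor, gave 1269 to 2013 on arrays 2194 to 2199, 5504 on array 2074 and 6313 on array 2076. Those of Bag1 were Smarca4, a chromatin remodelling ATPase, at 0.068, Kmt5a, a histone methyltransferase, at 0.13 and Eef1g, a translation elongation factor, at 0.13, against a median of 0.66. Those of Tnfrsf1a were Gabarap, an autophagy protein, at 0.10, Plekhh3 at 0.17 and Gpr89b at 0.18, against a median of 0.56. In all 9 of these genes arrays 2074 and 2076 were the 2 highest. This follows from how the genes were chosen, since they were matched on these same arrays to members with that order.

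The other genes of the pathway were described from 7 lists with 83 genes, of which 72 had a single-gene probe set and 52 were measured. Of the 52, 21 (40.4%) spread by 2-fold or more, against 29.8% of all 10513 measured genes by their brightest probe set. The median log2 inner range was 0.87 in the 52 and 0.78 in all. Leaving out array 2195 gave 12 of 50 pathway genes (24.0%) at 2-fold or more, against 21.9% of all genes then measured. Leaving out array 2196 gave 14 of 51 (27.5%) against 25.1%. In both cases most of the difference between the 2 shares was gone. With any of the remaining arrays left out the share was 27.5 to 36.7% in the pathway genes and 18.7 to 24.7% in all.

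Among TNF family ligands 4 of 7 were measured and 1 reached 2-fold. It was Tnfsf12, the ligand TWEAK, with 2.57-fold, followed by Tnfsf11, the ligand RANKL, with at least 1.98-fold and 6 arrays at the floor (1.30-fold without array 2194 or 2195). The count was 0 without array 2074, 2194, 2195 or 2197. Faslg, the ligand of Fas, ran from 318 on array 2074 to 1237 on array 2195 with an inner range of 1.60-fold, and Tnf and Tnfsf10 were not measured. Of other TNF receptor family members 4 of 9 were measured and 1 reached 2-fold. Ltbr, the lymphotoxin beta receptor, ran from 571 to 2974 on arrays 2194 to 2199 and reached 4067 on array 2074 and 3731 on array 2076, an inner range of 4.99-fold. It was 3.32-fold without array 2196 or 2198 and 2.25-fold over arrays 2194 to 2199. Tnfrsf12a, the receptor of TWEAK, had 1.74-fold and Ngfr at least 1.55-fold.

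Of the receptor adaptors, kinases and ubiquitin ligases 13 of 15 were measured and 4 reached 2-fold. Rbck1, a subunit of the linear ubiquitin ligase, had 3.59-fold, with 277.9 on array 2195 and 1971 on array 2074, and 1.95-fold without array 2195 or 2196. Ripk3, the kinase of necroptosis, had at least 2.35-fold, and the adaptor Traf3 was the narrowest with 1.27-fold. Without array 2195, 0 genes of this list reached 2-fold, and without array 2198, 2 did. Of other inhibitor of apoptosis genes and their antagonists 3 of 8 were measured. Birc5, survivin, had at least 2.15-fold and was the only 1 of the 3 at 2-fold or more, with 0 when array 2076, 2195, 2197 or 2199 was left out, while the antagonists Diablo and Htra2 had 1.43-fold and 1.19-fold. Diablo was lowest on arrays 2074 and 2076, at 5642 and 6172, against 6320 to 10473 on the other 6.

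Of the BAG family and its partners 6 of 7 were measured and 3 reached 2-fold. Stub1, a ubiquitin ligase that works with Hsp70, reached 8135 on array 2074 and 10391 on array 2076 and stayed at 1797 to 3982 elsewhere, and its inner range was 2.89-fold over 8 arrays, 1.42-fold without array 2074 or 2076 and 1.27-fold over the 6. Bag6 had 2.64-fold and Bag3 1.20-fold. Of other NF-kappaB subunits, inhibitors and kinases 13 of 18 were measured and 5 reached 2-fold, or 3 without array 2074, 2194, 2196 or 2199. Among the 5, Map3k14 was under the floor on 6 arrays and Relb on 3, so both were read near background. Ikbkb, a kinase that releases NF-kappaB from its inhibitor, had 3.69-fold, with 3014 on array 2074, 3265 on array 2076 and 811 to 1571 elsewhere (1.92-fold without array 2074 or 2076). Nfkbia, which encodes that inhibitor, had 2.77-fold, from 414 on array 2196 to 1875 on array 2195, and Tab2 had 1.23-fold.

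Of 19 genes known to be induced by NF-kappaB 9 were measured and 6 reached 2-fold, or 3 without array 2196. Vcam1, an adhesion molecule, had at least 3.29-fold from 223 to 1003, and at least 1.87-fold without array 2195 or 2199. Tnfaip3, which encodes the NF-kappaB inhibitor A20, gave 5571 on array 2074, 15803 on array 2076 and 4994 to 15465 elsewhere, an inner range of 2.78-fold. The arrays 2074 and 2076 were thus far apart in Tnfaip3, while both were high in Rela. Tnfaip2 had the smallest figure, at least 1.59-fold, but with 4 arrays at the floor this is a lower bound and does not rank it. Ier3 had 1.63-fold and Irf1 1.66-fold, both with 0 arrays at the floor. The other 10 of the 19, among them Ccl2, Icam1, Il6 and Il1b, were not measured.

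**Figure D4:**
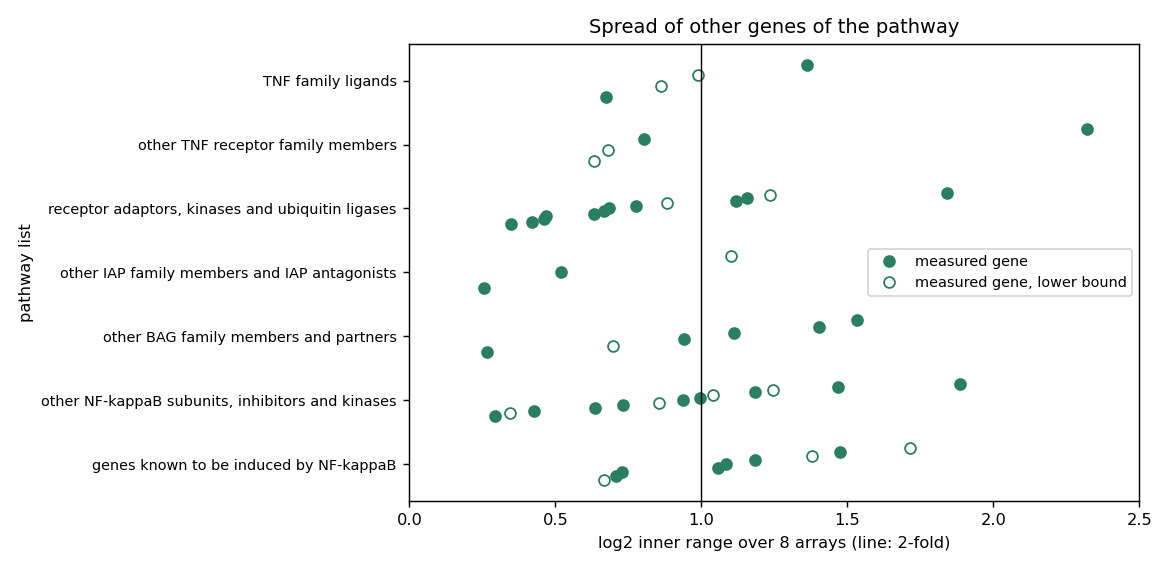
Log2 inner range over 8 arrays of the 52 measured genes of 7 pathway lists (rows; points are spread vertically only for legibility), with open points for lower bounds and a line at 2-fold. Ltbr lies farthest to the right at 2.32, and 21 of the 52 points lie to the right of the line.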

How the data were processed

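Total RNA of granulosa cells was hybridised to 1 biotin-labelled array per sample, per the labels. The authors made the deposited signal intensities with MAS5, per the submitters' processing notes (no version stated there). The trimmed mean, with 2% cut at both ends, was 1500.5 to 1500.6 on every array, so arrays had been scaled before deposit. MAS5 values are noisy at low signal, and no detection calls were used.

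The table held 31099 probe sets, of which 57 controls were left out. In the platform annotation, which can be old, 436 probe sets had several symbols and 9780 others were not listed. Looking symbols up by gene identifier in a GRCr8 gene table changed 0 of them. Log2 signals were shifted so that all arrays shared 1 median over the 10109 probe sets brighter than the median of every array. Signals are printed after this scaling and before the floor. A probe set brighter than the array median on 2 or more arrays counted as measured. A gene of a pathway list was read from its brightest measured probe set. Summed marker signals add probe sets of unlike brightness and give no share of cells. The number of arrays limits the precision. The computation of the spread was tested on simulated data. Since arrays have no group, no mean, error or test between groups was computed. Dixon's ratio for a single array apart from the rest, on log2 signals before the floor, passed its critical value for 8 arrays, 0.526, in 0 of 10 results (the 9 measured members and the Rela minus Nfkb1 difference).

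The members, lists and rules were chosen with earlier results of these data known. Named by rule are all members, the 2 widest and the narrowest gene of each list, and the 3 genes most like each wide member that was above the floor on all 8 arrays. Other marker or pathway genes, Chuk, Sod2, Cxcl1 and Bag5 among them, were named after their values were seen. Settings tried beside these were signals as deposited, quantile normalization, a lower floor (25th percentile), no floor, a stricter filter (all 8 arrays), no filter, the full range, other ways to combine probe sets, leaving out each array, and arrays 2194 to 2199 alone. Python 3.11.15, pandas 2.3.3 and numpy 2.4.6 were used.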

Additional observations from a re-analysis of the deposited data

How the results depend on the processing

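The count of members that spread by 2-fold or more, 4 of 9, was the same without further scaling and with the brightest probe set alone. It was 6 of 9 with quantile normalization, a lower floor or no floor, 3 of 5 with the stricter filter and 4 of 13 without a filter. Beside these, the share of all measured probe sets was 31.0% without further scaling and 29.1% with quantile normalization. It was 43.7% with a lower floor or none, 20.1% with the stricter filter and 21.6% without a filter. The count of members was 9 by the full range, 0 over arrays 2194 to 2199 alone, and 0 to 4 when 1 array was left out. The pathway count of 21 was 44 by the full range, 10 with the filter on all 8 arrays, 10 on arrays 2194 to 2199 alone, and 12 to 18 with any 1 array left out. The share of all measured probe sets at 2-fold or more, 31.7%, was 74.2%, 20.1% and 13.04% under those same settings and 20.5 to 26.8% when 1 array was left out. These shares are of probe sets, whereas the pathway counts are of genes. The number of pathway genes measured with the stricter filter or on arrays 2194 to 2199 alone is not given here. Whether the pathway share stayed above that of all genes under those settings can therefore not be read. The inner range of the Rela minus Nfkb1 difference was 1.77 on the log2 scale, and 1.61 to 1.77 when 1 array was left out. It was 2.93 by the full range and 0.39 over arrays 2194 to 2199. The 0.39 leaves out array 2195 at 1.39 and array 2196 at -1.01. The full range is never narrower than the inner range and fewer arrays narrow both, by construction. Of 245 values of single members and lists, 195 moved by no more than 1.5 times and 50 by more. Every pair of Rela and Nfkb1 probe sets could not be tried as an alternative, since each gene had 1 probe set. No paired analysis was possible because the labels place no array in a group. Low signal limits Fas, Cflar and Birc2, whose inner ranges are lower bounds.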

Other observations

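Arrays 2074 and 2076 lay above the other 6 in 8 of the 52 measured pathway genes and below them in 5. Of all measured probe sets, they lay above in 13.1% and below in 13.6%. The pathway counts are of genes by their brightest probe set, the shares of probe sets. Probe sets that set these 2 arrays apart in either direction were thus common across the array. The 2 catalytic kinases of the IKK complex differed in direction. Chuk gave 7937 on array 2074, 8999 on array 2076 and 14815 to 19973 elsewhere, whereas Ikbkb was higher on the 2 arrays. Sod2, the mitochondrial superoxide dismutase and a gene known to be induced by NF-kappaB, gave 8438 on array 2074, 6573 on array 2076 and 2739 to 3955 elsewhere. Of the 9 measured genes of that list it was the only 1 in which both arrays lay above the other 6, and both lay below in 0. Bag5, another co-chaperone of the BAG family, gave 1612 on array 2074, 2319 on array 2076 and 3490 to 4477 on the others, which is the opposite of Bag1. In these genes arrays 2074 and 2076 did not overlap the other 6. The labels give no treatment or batch for any array, and the part of RNA quality in these values was not tested.

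Cxcl1, a chemokine induced by NF-kappaB, did not set arrays 2074 and 2076 apart from the other 6. It gave 766, 727 and 1103 on arrays 2074, 2076 and 2194, 998 on 2197 and 437 on 2196, and it was under the floor on arrays 2195, 2198 and 2199, at 103, 115 and 188. Its inner range of 2.60-fold is a lower bound, and at this low signal no division of the arrays is read from it.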
